A study of Mus musculus with 12 samples.

Results

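Collagens are the proteins that give connective tissue its strength, and fibroblasts are a main source of them in the body. They were read here as every gene whose symbol on the array is Col, a number, the letter a and a number, such as Col1a1: 91 of the 45281 probes, for 41 of the 19057 named genes on the array. A probe counted as detected on an array when its detection p-value, which sets it against the negative controls of that array, was under 0.05. A collagen gene was tested when a probe of it was detected on all 3 arrays of at least 1 group, as 19 of the 41 genes were.

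The cells were mouse embryonic fibroblasts in culture, either Sirt2+/+ (wild type) or Sirt2-/- (knockout). Sirt2 encodes a NAD-dependent deacetylase found mostly in the cytoplasm. Cells of each genotype were left untreated or received the type I interferon beta of the mouse for 4 h at 2500 IU/ml, and RNA of each sample was hybridised to an Illumina single-colour bead array of its own. The 4 groups of 3 arrays were thus untreated wild type, treated wild type, untreated knockout and treated knockout. The mouse strain, the stage of the embryos, the passage of the cells and the way Sirt2 was inactivated are not stated in the labels. The labels number the arrays of a group 1 to 3 without saying that they came from separate embryos or cultures, so p-values reflect no more than the spread among these samples, which may be technical.

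A collagen molecule is a triple helix of alpha chains, each the product of its own gene. Fibrillar collagens (types I, III and V among them) line up into the banded fibrils of skin, bone and tendon. Type IV forms the sheet-like network of basement membranes, and type VI forms beaded microfibrils close to cells. FACIT collagens sit on the surface of fibrils, and multiplexins lie in basement membranes and carry sugar chains. Before a helix leaves the cell its chains are hydroxylated and folded with the help of chaperones, and outside the cell propeptides are cut off and chains are crosslinked by lysyl oxidases.

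The promoters of 4 genes on which the comparisons turn are shown from 250 bases before to 50 bases after the annotated start, 5′ to 3′ on the strand of the gene, as RefSeq gives them on GRCm38.p6. They are the pair Col4a1 and Col4a2, with the largest genotype differences among the collagens over all arrays, Col3a1, the fibrillar gene with the largest one, and Col1a2, a fibrillar gene whose difference did not pass the test. Capitals mark matches on either strand to the CCAAT box (CCAAT), the GC box (GGGCGG) and the TATA box (TATAAA).
Col4a1 (chr8:11312777-11313076, minus strand): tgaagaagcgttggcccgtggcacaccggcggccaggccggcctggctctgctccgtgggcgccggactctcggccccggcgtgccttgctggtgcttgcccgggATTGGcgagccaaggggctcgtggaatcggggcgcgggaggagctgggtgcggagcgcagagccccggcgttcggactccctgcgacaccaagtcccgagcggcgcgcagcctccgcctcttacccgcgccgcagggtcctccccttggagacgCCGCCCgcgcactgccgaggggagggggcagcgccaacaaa
Col4a2 (chr8:11312555-11312854, plus strand): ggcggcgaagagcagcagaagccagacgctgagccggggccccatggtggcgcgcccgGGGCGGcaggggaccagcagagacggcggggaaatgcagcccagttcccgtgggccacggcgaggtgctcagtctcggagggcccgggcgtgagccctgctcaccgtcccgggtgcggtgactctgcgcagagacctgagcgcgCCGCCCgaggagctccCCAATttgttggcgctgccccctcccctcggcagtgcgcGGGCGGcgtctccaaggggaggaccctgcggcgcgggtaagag
Col3a1 (chr1:45311288-45311587, plus strand): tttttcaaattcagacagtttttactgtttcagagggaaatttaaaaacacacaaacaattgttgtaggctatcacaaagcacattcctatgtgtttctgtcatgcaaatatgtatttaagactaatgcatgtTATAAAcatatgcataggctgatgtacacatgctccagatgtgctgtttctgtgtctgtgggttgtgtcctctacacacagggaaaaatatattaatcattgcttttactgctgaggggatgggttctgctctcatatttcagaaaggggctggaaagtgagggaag
Col1a2 (chr6:4505368-4505667, plus strand): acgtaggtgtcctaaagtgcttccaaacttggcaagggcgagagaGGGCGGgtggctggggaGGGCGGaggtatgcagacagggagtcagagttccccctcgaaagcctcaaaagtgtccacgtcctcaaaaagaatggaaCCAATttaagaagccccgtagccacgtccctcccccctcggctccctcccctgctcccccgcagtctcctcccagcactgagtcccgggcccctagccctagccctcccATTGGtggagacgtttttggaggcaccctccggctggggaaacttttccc

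Col4a1 and Col4a2 lie next to each other on chromosome 8 on opposite strands, and their windows share 78 bases, so that both genes start from a common stretch. This head-to-head arrangement is known in mammals as a bidirectional promoter. The windows of Col4a1 and Col4a2 are 74% and 73.7% G or C, that of Col1a2 is 61% and that of Col3a1 37.7%. Windows were found for 16 of the 19 tested collagen genes, 19 windows in all. The GC box stood in 68.4% of them, against 35.7% of the 32851 windows of all genes, and the CCAAT box in 47.4% against 37.4%. The interferon-stimulated response element, searched as GAAA, any 2 bases and GAAA, stood in 0 of the 19 windows on either strand, against 3.44% of all windows. At so low a share, 0 of 19 windows does not show that the element is rarer in collagen promoters. Matches that touch each other are marked as 1 run, and a match is a description of the letters and not a measured site.

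Sirt2 itself was measured first. Its log2 level was 8.72, 8.89 and 8.94 on the untreated wild-type arrays and 6.04, 6.65 and 6.61 on the untreated knockout arrays. It was 9.22, 8.75 and 8.97 on the treated wild-type arrays and 5.85, 6.36 and 6.15 on the treated knockout arrays. The genotypes did not overlap, and the difference was -2.42 ± 0.18 (SE) untreated and -2.86 ± 0.18 under interferon, with adjusted p = 2.37e-07 and 6.54e-08. The labels do not say whether the probe lies in the part of Sirt2 that was deleted.

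Several arrays stood apart from others of their group. Of 30 named genes, none a collagen, that were well expressed on all 6 wild-type arrays and not detected on treated knockout array 1, untreated knockout array 1 detected 1, array 2 detected 29 and array 3 detected 30. Their median level there was 0.0164%, 6.86% and 4.37% of that in wild type, and treated knockout arrays 2 and 3 detected 18 and 19 of them at 1.44% and 1.32%. Transcripts that are high in wild type were thus present at a low level on knockout arrays 2 and 3 and near the floor on untreated array 1. Their absence from treated array 1 was fixed by the choice of the 30 genes. Genotype differences of collagens are also given below without knockout arrays 2 and 3 of both treatments where that ended a call or moved the fold most. Those fits hold 1 knockout array per treatment, so their standard errors and p-values contain no spread among knockout samples. Of 12 genes that only the treated wild-type arrays detected among wild-type arrays, the untreated knockout arrays detected 6, 12 and 11. The 2 genotypes also differed in Xist, the RNA of the silenced X chromosome (knockout minus wild type -4.28 ± 0.55), and in the Y-linked Eif2s3y, at least 24.8-fold higher in the untreated knockout, so the sex of the embryos and the genotype cannot be told apart. Eif2s3y stood at 6.78 on treated wild-type array 2, against 4.65 and 4.32 on arrays 1 and 3, and leaving that array out ended 2 collagen calls, named below. Across arrays, 17091 to 18155 probes were detected, and arrays of a group correlated at 0.987 to 0.996 over probes, which are not independent replicates.

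Of the 9 listed fibroblast markers, all tested, 8 were detected on all 12 arrays and Fap on 4 wild-type arrays and no knockout array. In the knockout 7 of the 9 were lower and 0 higher, untreated (24.2% and 27.1% of all 12128 features) and under interferon (23.2% and 27.1%), and their summed linear intensity was 28900 to 32800 on the untreated wild-type arrays and 14000 to 15400 on the untreated knockout arrays. Of 4 chondrocyte markers, the summed level was 5420 to 6220 in untreated wild type and 1170 to 1530 in untreated knockout, carried by Sox9, while Acan, which encodes the cartilage proteoglycan aggrecan, was higher in the knockout by 3.25 ± 0.16 and Matn1 was detected on no array. Of 5 epithelial markers, the sum was 482 to 741 against 51.9 to 78.9, carried by Krt18, and Epcam was detected on no array. Of 4 smooth muscle markers, the sum was 28300 to 32000 against 18500 to 23800, with Myh11 and Cnn1 detected on no array. That sum followed Acta2, lower by -0.61 ± 0.11 untreated, while Tagln, the other tested marker, was higher by 1.71 ± 0.16. The endothelial, blood, osteoblast and skeletal muscle sums were between 19.6 and 50.6 in every group, with Pecam1, Kdr, Ptprc, Adgre1, Lyz2, Sp7, Bglap, Myod1 and Des detected on no array. Their other members on the array were detected, Ibsp on 10 arrays, Myog on 6, Tek on 2, and Cdh5 and Csf1r on 1 each. Only Ibsp of these was tested, and it was not called between the genotypes. The part of the fibroblast, chondrocyte, epithelial and smooth muscle markers in the collagen differences was not tested, and in bulk RNA fewer cells of a type and less RNA per cell cannot be told apart.

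Of the 41 collagen genes, 13 were detected on all 12 arrays: Col1a1, Col1a2, Col5a1, Col5a2, Col4a1, Col4a2, Col4a5, Col6a1, Col6a2, Col16a1, Col8a1, Col18a1 and Col7a1. A further 6 passed the filter in some groups only, namely Col3a1, Col5a3, Col11a2, Col4a4, Col9a1 and Col26a1. By class, 7 of 11 fibrillar genes, 4 of 6 basement membrane genes, 2 of 5 beaded filament genes, 2 of 7 FACIT genes, 1 of 3 network genes, 1 of 2 multiplexins, 0 of 4 transmembrane collagens and 2 of 3 others were tested. The 22 genes not tested include the cartilage collagens Col2a1, Col10a1, Col11a1, Col9a2 and Col9a3. Of the 22, Col4a3, Col4a6, Col6a4, Col6a5, Col6a6, Col9a3, Col10a1, Col13a1, Col14a1, Col19a1, Col22a1, Col23a1, Col24a1 and Col28a1, 14 genes, had no probe detected on any array. For the remaining 8, the probe seen most often was detected on 1 to 5 of the 12 arrays, Col27a1 most often (5 arrays), followed by Col2a1 (4), Col15a1 (3), Col8a2, Col9a2, Col11a1 and Col25a1 (2 each) and Col17a1 (1). At this signal over background, these 22 genes were not measurable, which does not show that they were silent.

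**Figure D1:**
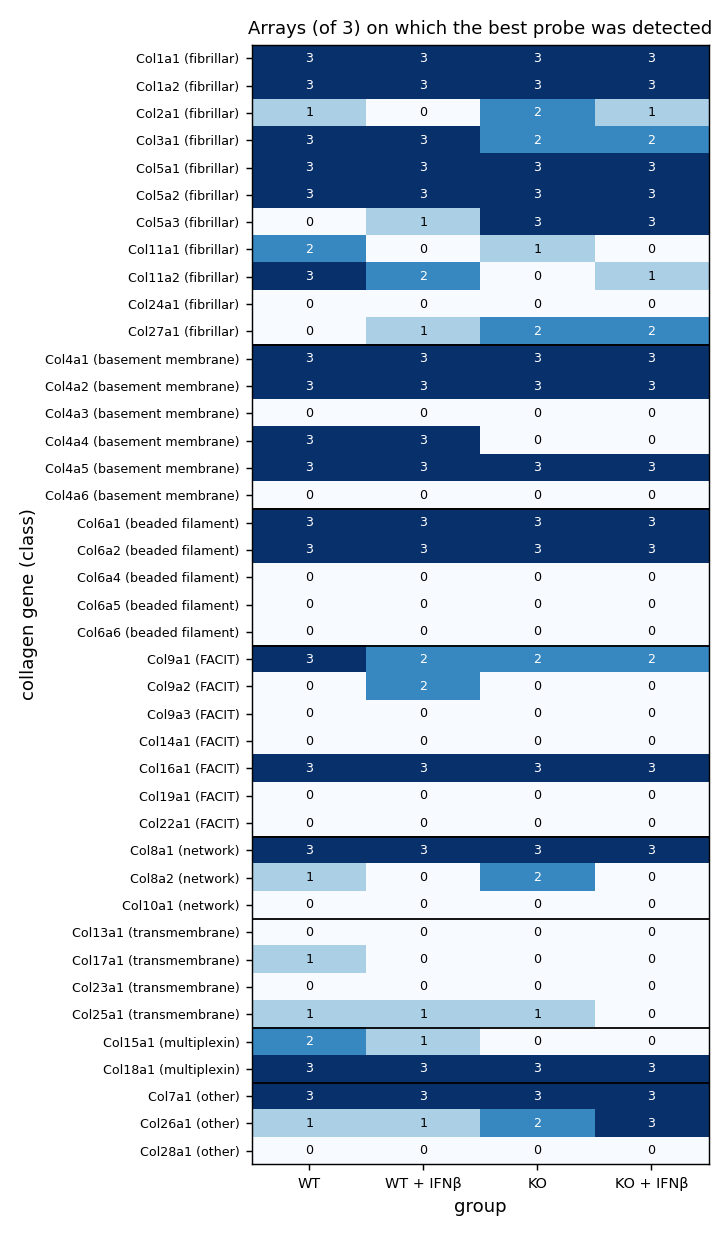
Number of arrays, of 3, on which each of the 41 collagen genes was detected in each group, by the probe detected most often in that group (columns; rows are genes by class, darker means more arrays). The 13 rows of 3, 3, 3 and 3 are the genes seen on all 12 arrays, and Col4a4 is at 3 in both wild-type groups and 0 in both knockout groups.

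The main comparison asked how the collagens differed between knockout and wild type. Untreated, 9 of the 13 genes detected on all arrays were lower in the knockout and 1 was higher, against 23.4% lower and 27.8% higher among the 9908 features detected on all 12 arrays. Of the 13, 7 were lower by at least 2-fold (6.24% of those features) and 1 was higher by at least 2-fold (4%). The median difference of the 13 was -1.12 on the log2 scale, against 0.06 over the 9908 features. Under interferon, 8 of the 13 were lower (background 22%) and 2 higher (28.1%), 6 of them lower by at least 2-fold (6.08%) and 1 higher by at least 2-fold (3.97%), and their median was -0.97 against 0.07. The untreated and treated comparisons use different arrays. Among all 19 tested genes, of which 6 passed the filter through some groups only, the counts were 11 lower and 2 higher untreated, with backgrounds of 24.2% and 27.1% of 12128 features, and 10 lower and 3 higher under interferon, with backgrounds of 23.2% and 27.1%. Without knockout arrays 2 and 3 of either treatment, each knockout group held 1 array, so genes called in that fit are not counted here.

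**Figure D2:**
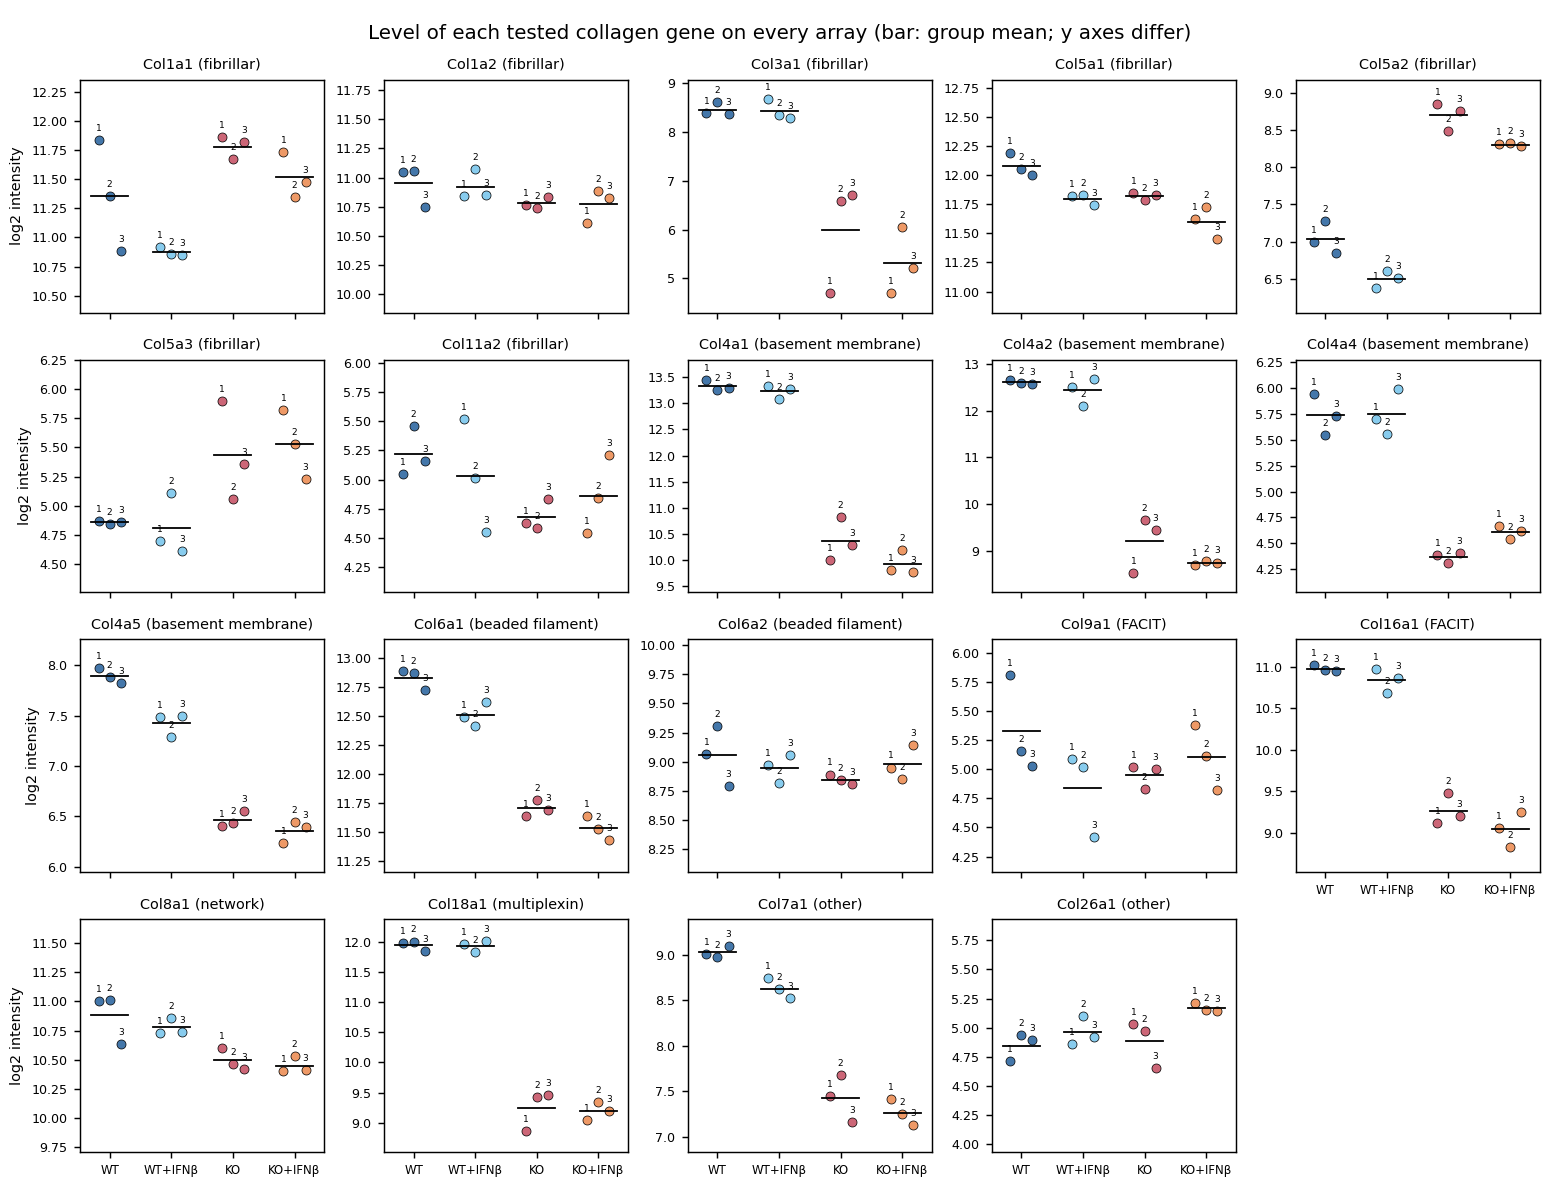
Log2 level of each of the 19 tested collagen genes on every array, with a panel per gene, the 4 groups along the x axis, array numbers beside the points and a bar at the group mean; the y axes differ between panels, since levels of different probes cannot be compared. The type IV genes, Col18a1, Col16a1, Col7a1, Col6a1 and Col3a1 sit lower on all knockout arrays than on any wild-type array, and Col5a2 sits higher.

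The 4 tested type IV genes were all lower in the knockout, against 24.2% of all 12128 features untreated and 23.2% under interferon. Of the 4, Col4a4 passed the filter through the wild-type groups only, which favours a lower call. The pair Col4a1 and Col4a2 had the largest differences of the 19 over all arrays. With array 1 as the only knockout array, the measured difference in Col3a1 was -3.75 untreated and -3.74 under interferon. That of Col4a1 was -3.33 and -3.40, and that of Col4a2 under interferon was -3.72. Col3a1 was not detected on that array, so only bounds hold for it, at least 11.5-fold and 11.2-fold lower. No order among Col3a1, Col4a1 and Col4a2 is therefore given there. Col4a1 and Col4a2 encode the alpha chains of the network found in nearly every basement membrane. Col4a1 stood at 13.45, 13.25 and 13.29 on the untreated wild-type arrays, at 10, 10.82 and 10.29 on the untreated knockout arrays, at 13.33, 13.09 and 13.28 on the treated wild-type arrays and at 9.82, 10.19 and 9.77 on the treated knockout arrays. No knockout array reached any wild-type array, with more than 2 log2 units between the nearest of them. The difference in Col4a1 was -2.96 ± 0.18 untreated, a 7.76-fold lower level (adjusted p = 5.2e-08), and -3.30 ± 0.18 under interferon, 9.87-fold lower (adjusted p = 2.09e-08).

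Col4a2 stood at 12.66, 12.58 and 12.56 on the untreated wild-type arrays and at 8.53, 9.66 and 9.46 on the untreated knockout arrays. On the treated arrays it stood at 12.51, 12.1 and 12.68 in wild type and at 8.71, 8.79 and 8.76 in the knockout. The groups did not overlap, and untreated knockout array 1 was the lowest of all 12. The difference in Col4a2 was -3.38 ± 0.23 untreated (10.4-fold lower, adjusted p = 1.16e-07) and -3.68 ± 0.23 under interferon (12.8-fold lower, adjusted p = 6.54e-08). It ranked 98th and 82nd by size among the 12128 features. Without knockout arrays 2 and 3 of either treatment the untreated difference was -4.07, 1.61 times as large a fold, with 1 knockout array per treatment.

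Col4a5 and Col4a4 encode chains best known from the filter of the kidney, where they join with the chain of Col4a3. Col4a5, which lies on the X chromosome beside Col4a6, was 7.97, 7.88 and 7.82 in untreated wild type and 6.4, 6.43 and 6.55 in untreated knockout. It was lower in the knockout by -1.43 ± 0.10 untreated (adjusted p = 1.38e-07) and by -1.07 ± 0.10 under interferon (adjusted p = 1.51e-06), and its other kept probe was also lower, at -1.09 ± 0.19 and -0.63 ± 0.19. Because Xist differed between the genotypes, a difference in X-linked dosage and the genotype cannot be told apart for Col4a5. Col4a4 was 5.94, 5.55 and 5.73 on the untreated wild-type arrays and was not detected on any of the 6 knockout arrays, where its measured level was 4.31 to 4.67. Against the background level of those arrays, Col4a4 was at least 1.77-fold lower in the untreated knockout (adjusted p = 1.32e-06) and at least 1.74-fold lower under interferon (adjusted p = 6.76e-06). Its neighbour Col4a3 on chromosome 1 and the neighbour of Col4a5, Col4a6, were detected on no array.

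Of the 7 tested fibrillar genes, 2 were lower and 2 higher in the untreated knockout, shares close to the 24.2% and 27.1% of all features. Under interferon 1 was lower and 3 were higher (23.2% and 27.1%). Col3a1, whose chain forms type III collagen of skin and vessel walls, stood at 8.38, 8.61 and 8.36 on the untreated wild-type arrays and at 4.7, 6.58 and 6.7 on the untreated knockout arrays. On the treated arrays it stood at 8.67, 8.35 and 8.28 in wild type and at 4.7, 6.05 and 5.22 in the knockout. Knockout array 1 of each treatment was not detected, and the other 4 knockout arrays were detected at a level below every wild-type array. The difference was -2.46 ± 0.44 untreated (5.49-fold lower, adjusted p = 0.000411) and -3.11 ± 0.44 under interferon (8.66-fold lower, adjusted p = 5.93e-05), with the widest standard error of the 19 genes. The arrays on which Col3a1 was detected in the knockout are those that detected most of the 30 wild-type genes above. With array 1 as the only knockout array, Col3a1 was at least 11.5-fold lower untreated and at least 11.2-fold lower under interferon, and without untreated knockout array 1 the difference was -1.81 (adjusted p = 0.00018).

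Col5a2 lies next to Col3a1 on chromosome 1 and differed in the opposite direction. It encodes a chain of type V collagen, which is built into type I fibrils and limits their width. Col5a2 stood at 6.99, 7.27 and 6.85 on the untreated wild-type arrays and at 8.85, 8.48 and 8.75 on the untreated knockout arrays. On the treated arrays it stood at 6.37, 6.61 and 6.51 in wild type and at 8.31, 8.32 and 8.28 in the knockout. Every knockout array lay above every wild-type array. The difference was 1.66 ± 0.13 untreated (3.16-fold higher, adjusted p = 3.06e-07) and 1.81 ± 0.13 under interferon (3.5-fold higher, adjusted p = 1.47e-07). Without background correction and with the authors' deposited log2 values, the difference under interferon was 1.16. All 4 kept probes of Col5a2 were higher in the knockout in both comparisons, by 0.76 to 1.66 untreated and by 0.47 to 1.81 under interferon.

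The other chains of type V differed less. Col5a1 was 12.19, 12.05 and 12 in untreated wild type and 11.85, 11.79 and 11.83 in untreated knockout, and the groups did not overlap. Its difference of -0.26 ± 0.10 passed the test untreated (adjusted p = 0.0418), and the -0.20 ± 0.10 under interferon did not (adjusted p = 0.108). The untreated call did not hold without knockout arrays 2 and 3 (-0.23 ± 0.15, adjusted p = 0.273), nor with each array scaled to 1 median (-0.18, adjusted p = 0.147). Col5a3 was detected on all 6 knockout arrays, on 0 of 3 untreated wild-type arrays and on 1 of 3 treated ones. It was at least 1.43-fold higher in the untreated knockout (adjusted p = 0.0286) and 1.64-fold higher under interferon (0.72 ± 0.20, adjusted p = 0.00977), and the untreated call was kept under 17 of 25 alternatives. It was lost, among others, without background correction (0.18, adjusted p = 0.071), without untreated knockout array 1 (0.35, adjusted p = 0.13) and without untreated wild-type array 1, 2 or 3 (adjusted p = 0.0604, 0.0627 and 0.0626). With array 1 as the only knockout array, the measured difference in Col5a3 was 1.04 untreated and 1.01 under interferon, against 0.58 and 0.72 over all arrays.

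The 2 genes of type I collagen, the main collagen of bone, skin and tendon, showed no large genotype difference. Col1a1 spread from 10.88 to 11.84 over the 3 untreated wild-type arrays and lay at 11.86, 11.67 and 11.82 on the untreated knockout arrays. The groups overlapped, and the difference of 0.42 ± 0.19 did not pass the test (adjusted p = 0.0742). Leaving out untreated wild-type array 1, at 11.84, gave 0.66 ± 0.15 (adjusted p = 0.00331). Under interferon the wild-type arrays stood at 10.92, 10.86 and 10.85 and the knockout arrays at 11.73, 11.35 and 11.48, and the difference of 0.65 ± 0.19 passed (1.57-fold higher, adjusted p = 0.0106). Col1a2 was 10.75 to 11.06 in untreated wild type and 10.74 to 10.83 in untreated knockout, with differences of -0.18 ± 0.12 and -0.15 ± 0.12 that did not pass (adjusted p = 0.227 and 0.307). Col11a2, a cartilage chain seen on all 3 untreated wild-type arrays and on 0 of 3 untreated knockout arrays, was at least 1.23-fold lower in the untreated knockout without passing the test (adjusted p = 0.0539), and differed by -0.16 ± 0.22 under interferon (adjusted p = 0.562). The untreated difference stayed short of the threshold under 17 of 25 alternatives and passed under the other 8, at an adjusted p of 0.0101 when fitted on the compared groups only and 0.0354 with each array scaled to 1 median.

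Of the beaded filament genes, Col6a1 was lower in the knockout and Col6a2 depended on the probe. They encode chains of type VI collagen that are needed together in its microfibrils. Col6a1 was 12.88, 12.87 and 12.72 in untreated wild type and 11.64, 11.78 and 11.69 in untreated knockout, and it was 12.49, 12.41 and 12.62 against 11.64, 11.53 and 11.43 under interferon. The genotypes did not overlap, with differences of -1.12 ± 0.10 (adjusted p = 9.41e-07) and -0.97 ± 0.10 (adjusted p = 3.33e-06), and all 3 kept probes of Col6a1 were lower in both comparisons. The brightest probe of Col6a2 gave -0.21 ± 0.13 and 0.03 ± 0.13, neither past the test (adjusted p = 0.201 and 0.868). A second kept probe of Col6a2 was higher in the knockout by 0.64 ± 0.12 (adjusted p = 0.000446) and 0.83 ± 0.12 (adjusted p = 5.56e-05), with p-values adjusted over the 17837 kept probes, so no direction is given for this gene.

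The FACIT, network, multiplexin and anchoring fibril genes included further large differences. Col18a1 encodes the multiplexin from which the fragment endostatin is released. It stood at 11.98, 12 and 11.84 in untreated wild type and at 8.87, 9.43 and 9.46 in untreated knockout, and at 11.96, 11.83 and 12.01 against 9.04, 9.35 and 9.19 under interferon. No knockout array came within 2 log2 units of a wild-type array, and the difference was -2.69 ± 0.15 untreated (6.45-fold lower, adjusted p = 2.43e-08) and -2.74 ± 0.15 under interferon (6.68-fold lower, adjusted p = 2.06e-08). Its second kept probe gave -2.31 ± 0.21 and -2.41 ± 0.21. With array 1 as the only knockout array, the difference in Col18a1 was -3.075 untreated and -2.894 under interferon.

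Col16a1, a FACIT collagen of fibril surfaces, was 11.02, 10.96 and 10.95 in untreated wild type and 9.11, 9.48 and 9.2 in untreated knockout. Its difference was -1.71 ± 0.13 untreated (3.28-fold lower, adjusted p = 2.82e-07) and -1.79 ± 0.13 under interferon (3.46-fold lower, adjusted p = 1.79e-07). Col7a1 encodes the anchoring fibrils that fasten the epidermis to the dermis. It was 9.01, 8.97 and 9.09 in untreated wild type and 7.45, 7.68 and 7.16 in untreated knockout, lower by -1.60 ± 0.13 untreated (adjusted p = 4.83e-07) and by -1.36 ± 0.13 under interferon (adjusted p = 1.95e-06). A dimmer second probe of Col7a1 was also lower, at -0.58 ± 0.17 and -0.75 ± 0.17. In Col16a1 and Col7a1 all knockout arrays lay below all wild-type arrays.

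Col8a1, a short-chain network collagen of vessel walls and the cornea, differed little. Its differences of -0.39 ± 0.11 and -0.33 ± 0.11 passed the test (adjusted p = 0.0124 and 0.0277), but not in its second probe (-0.12 ± 0.14 and -0.29 ± 0.14), not without knockout arrays 2 and 3 of either treatment (adjusted p = 0.272 and 0.152), and, under interferon, not without treated wild-type array 2 (-0.29 ± 0.13, adjusted p = 0.0867). Col9a1 and Col26a1, a cartilage FACIT chain and a collagen described in mouse testis and ovary, were dim, at group means between 4.84 and 5.33. Col9a1 gave -0.38 ± 0.22 and 0.26 ± 0.22, and Col26a1 gave 0.04 ± 0.12 and 0.21 ± 0.12, none past the test.

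**Figure D3:**
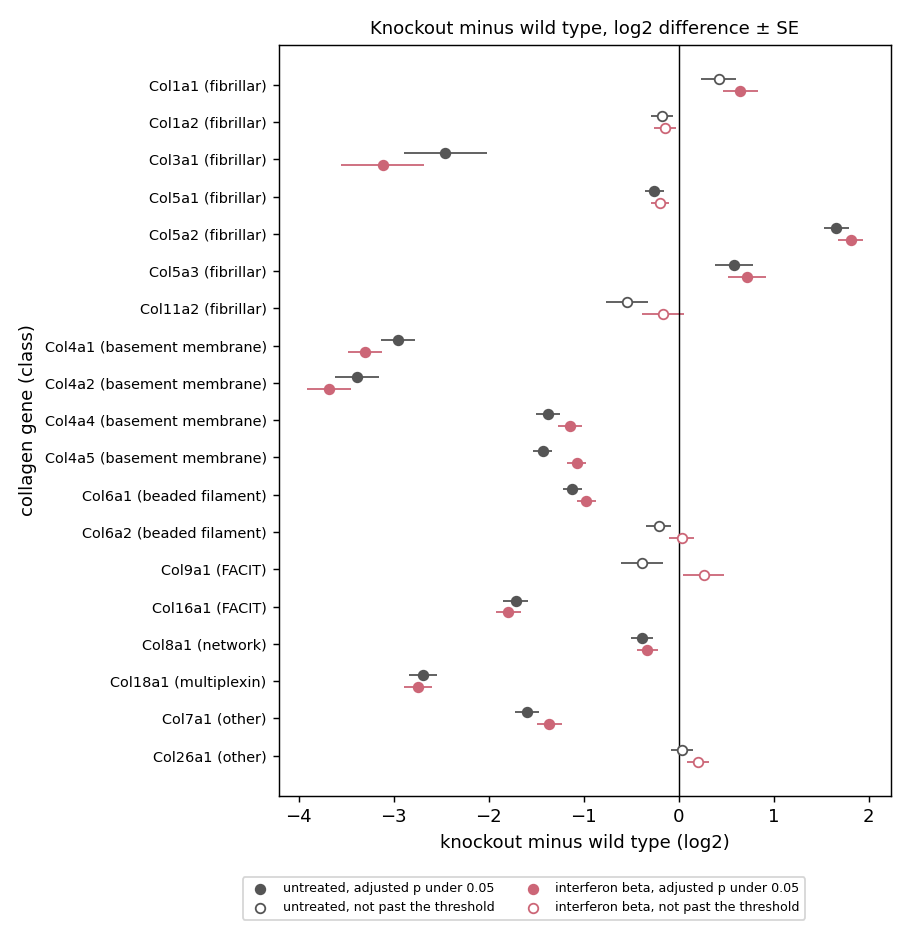
Knockout minus wild type for each tested collagen gene (x axis, log2 difference; bars are 1 standard error; grey untreated, red interferon beta; filled points passed the adjusted threshold). Col4a1, Col4a2, Col18a1 and Col3a1 lie below -2 in both comparisons, and Col5a2 is the 1 gene above 1.

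Interferon beta changed collagen transcripts little in 4 h. In wild type, 3 of the 13 genes seen on all arrays were lower after treatment (background 8.03% of 9908 features) and 0 were higher (5.26%), and 0 of the 3 reached 2-fold (0.0706%). The median over the 13 was -0.17, against -0.07 over the 9908 features. Over the 19 tested genes the counts were the same, with backgrounds of 7.56% lower and 6.27% higher, and at an unadjusted p under 0.05 they were 7 lower and 0 higher, against 16.9% and 9.38% of all features. All 13 point estimates in wild type were below 0, as were those of 6216 of the 9908 features, and most of the 13 did not pass the test.

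Col4a5 fell from 7.97, 7.88 and 7.82 to 7.49, 7.29 and 7.5 in treated wild type, without overlap. The difference was -0.46 ± 0.10 (1.38-fold lower, adjusted p = 0.00753), and it passed under all 26 alternatives. Col5a2 fell from 6.99, 7.27 and 6.85 to 6.37, 6.61 and 6.51, by -0.54 ± 0.13 (1.45-fold lower, adjusted p = 0.0128). The mean of its 4 kept probes did not show this fall (-0.12 ± 0.16, adjusted p = 0.705), and the call was also lost without untreated wild-type array 2 (adjusted p = 0.0511) or treated wild-type array 1 (adjusted p = 0.0605). Col6a1 went from 12.88, 12.87 and 12.72 to 12.49, 12.41 and 12.62, by -0.32 ± 0.10 (adjusted p = 0.0493), at the edge of the threshold, and it kept its call under 9 of 26 alternatives. It lost the call, among others, without treated wild-type array 2 (-0.27 ± 0.11, adjusted p = 0.148).

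Genes near the threshold in wild type were Col7a1 (-0.40 ± 0.13, adjusted p = 0.0596) and Col5a1 (-0.28 ± 0.10, adjusted p = 0.0724), neither past it. Their treated and untreated wild-type arrays did not overlap, which held in that direction for 19.7% of all 12128 features. Both passed with the authors' deposited log2 values (Col7a1 -0.33, adjusted p = 0.0171; Col5a1 -0.28, adjusted p = 0.0233). Col1a1 gave -0.48 ± 0.19 (adjusted p = 0.109) with overlapping arrays, and it passed without untreated wild-type array 3 (-0.72 ± 0.15, adjusted p = 0.00972). Col4a1, Col4a2, Col18a1 and Col3a1, which differed most between the genotypes, gave -0.10 ± 0.18, -0.17 ± 0.23, -0.01 ± 0.15 and -0.01 ± 0.44. Of the marker genes, the chondrocyte marker Sox9 was also lower after treatment in wild type, by -0.42 ± 0.13 (adjusted p = 0.0455). Of the 9 fibroblast markers, Pdgfra was lower by -0.62 ± 0.15 (adjusted p = 0.0152) and Prrx1 higher by 0.56 ± 0.10 (adjusted p = 0.00215). In the knockout Sox9 (-0.73 ± 0.13, adjusted p = 0.00282) and Pdgfra (-0.69 ± 0.15, adjusted p = 0.0137) were also lower after treatment. The part of these markers in the collagen values was not tested.

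In the knockout, 0 of the 19 tested genes passed in limma after treatment, against backgrounds of 2.31% lower and 4.3% higher. The 12 genes that only treated arrays detected among wild-type arrays had median levels of 4.92, 7.807 and 8.025 on the untreated knockout arrays. On the untreated wild-type arrays these medians were 4.48, 4.649 and 4.491. The part of this in the knockout response and in the difference of the responses was not tested. At an unadjusted p under 0.05, Col4a1, Col5a1 and Col5a2 were lower and Col26a1 was higher, against 11.6% and 7.73% of all features. Among the genes seen on all arrays, the largest differences were those of Col4a2 (-0.46 ± 0.23, adjusted p = 0.301) and Col4a1 (-0.45 ± 0.18, adjusted p = 0.186). Over the alternatives, the difference ran from -0.807 to 0.227 for Col4a2 and from -1.318 to 0.623 for Col3a1, so neither fell under all of them. On array 1 of each treatment, Col4a2 stood at 8.53 untreated and 8.71 treated, and Col3a1, not detected there, at 4.7 on both. Untreated knockout array 1 decided part of this: without it Col4a2 fell by -0.81 ± 0.15 (adjusted p = 0.00495) and Col3a1 by -1.32 ± 0.28 (adjusted p = 0.0131). That fit set untreated arrays 2 and 3, on which the 30 wild-type genes stood at 6.86% and 4.37%, against all 3 treated arrays. On treated arrays 2 and 3 the 30 genes stood at 1.44% and 1.32%. They were chosen as not detected on treated array 1, so their level there was fixed by that choice. The part of these transcripts in the fall of Col4a2 and Col3a1 was not tested.

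The test of the difference of the 2 responses, knockout minus wild type, passed for 0 of the 19 genes, against 0.115% of all features with a larger and 0.388% with a smaller response in the knockout. At an unadjusted p under 0.05 there was 1 gene, Col4a5, with a difference of 0.36 ± 0.14 (adjusted p = 0.531), against 3.67% of all features above 0 and 3.88% below. The number of genes called in wild type and not in the knockout therefore does not show that the responses differed. The standard error was widest for Col3a1, whose responses differed by -0.66 ± 0.62, followed by Col4a2 at -0.29 ± 0.33.

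**Figure D4:**
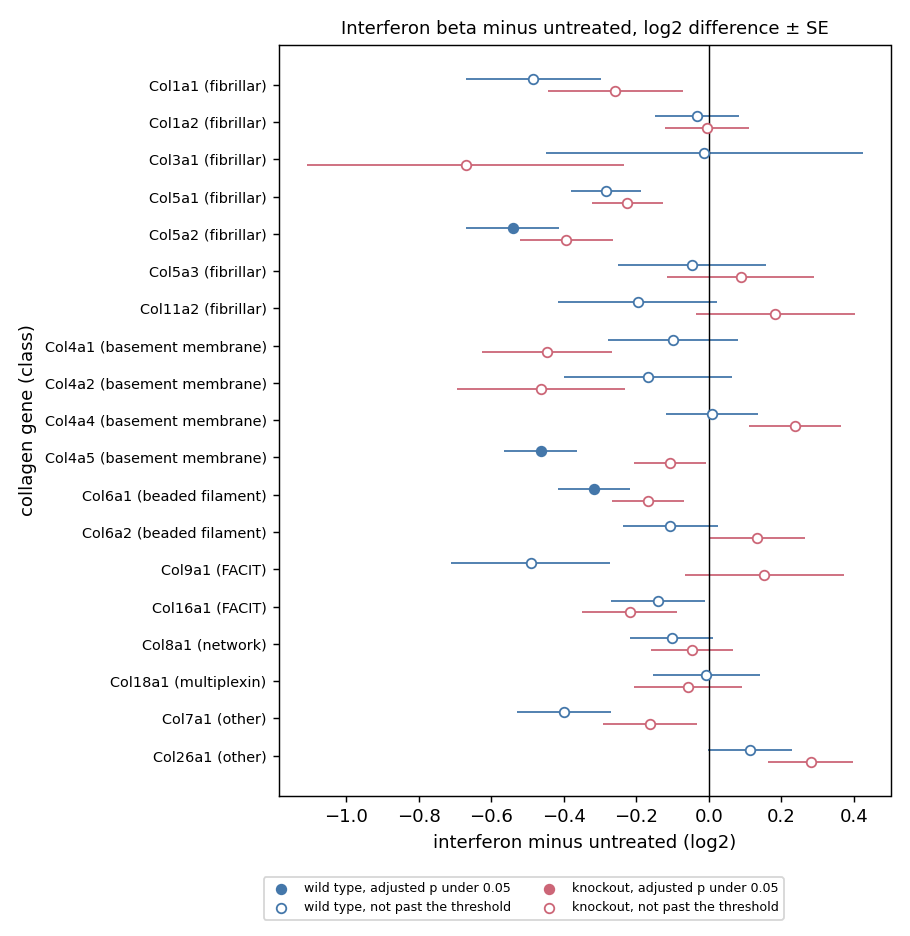
Interferon beta minus untreated for each tested collagen gene (x axis, log2 difference; bars are 1 standard error; blue wild type, red knockout; filled points passed the adjusted threshold). The filled points are Col5a2, Col4a5 and Col6a1 in wild type, all to the left of 0, and no knockout point is filled.

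Genes that act on collagens were read from 4 lists in the same fit. The backgrounds over all 12128 features were 27.1% higher and 24.2% lower untreated, and 27.1% and 23.2% under interferon. Of the 20 tested hydroxylases, chaperones and secretion factors, 5 were higher and 5 lower in the untreated knockout, and 6 and 5 under interferon. P3h3, a member of the prolyl 3-hydroxylase family, was lower by -1.21 ± 0.13 and -1.42 ± 0.13 (adjusted p = 4.27e-06 and 1.01e-06). Creb3l1, a transcription factor of the endoplasmic reticulum that drives Col1a1 in bone, was higher by 0.80 ± 0.19 untreated (adjusted p = 0.00274) and at least 1.79-fold higher under interferon (adjusted p = 0.000179). Creb3l1 was detected on 7 arrays and passed the filter through the knockout groups only, which favours a higher call. Colgalt2, counted as lower and also detected on 7 arrays, passed it through treated wild type only, which favours a lower call. Tmem38b, an ion channel of the endoplasmic reticulum, was higher by 0.86 ± 0.11 and 0.93 ± 0.11 (adjusted p = 2.77e-05 and 1.36e-05). The list median was 0.01 untreated and 0.06 under interferon, against 0.05 and 0.06 over all 12128 features.

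Of the 9 tested genes of propeptide cleavage and crosslinking, 4 were higher and 4 lower in both comparisons. Tll1, counted as lower, was detected on 6 arrays and passed the filter through the wild-type groups only, which favours a lower call. Pcolce2, an enhancer of propeptide cleavage, stood at 7.73, 7.49 and 7.76 in untreated wild type and at 10.81, 10.85 and 10.84 in untreated knockout. It was higher by 3.17 ± 0.18 untreated and 2.72 ± 0.18 under interferon (adjusted p = 3.73e-08 and 1.05e-07), and the groups did not overlap. Loxl4, a lysyl oxidase, was higher by 1.87 ± 0.16 and 2.00 ± 0.16 (adjusted p = 5.99e-07 and 3.08e-07). Tgm2, a transglutaminase, was lower by -1.39 ± 0.12 untreated (adjusted p = 9.68e-07), and Loxl3, another lysyl oxidase, by -1.26 ± 0.20 under interferon (adjusted p = 0.00017). The list median was -0.12 and -0.10.

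Of the 4 tested collagen receptors, 2 were higher and 0 lower untreated, and 3 were higher and 1 lower under interferon. Itga11, an integrin chain of fibroblasts that binds fibrillar collagen, stood at 5.3, 5.95 and 4.94 in untreated wild type and at 8.86, 8.66 and 8.54 in untreated knockout. The groups did not overlap, and the difference was 3.29 ± 0.35 untreated and 3.08 ± 0.35 under interferon (adjusted p = 5.45e-06 and 9.7e-06). Ddr1, a receptor tyrosine kinase for collagen, was higher by 0.48 ± 0.11 and 0.70 ± 0.11 (adjusted p = 0.00324 and 0.000188). Itgb1, the integrin beta chain that pairs with Itga11, was lower by -0.61 ± 0.23 under interferon (adjusted p = 0.0427) and gave -0.12 ± 0.23 untreated (adjusted p = 0.682). The call of Itgb1 was lost without treated wild-type arrays 1 or 2, without treated knockout arrays 1 or 3, and without knockout arrays 2 and 3 of both treatments.

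Of the 11 tested basement membrane partners of type IV collagen, 4 were higher and 3 lower in both comparisons. Over all 12128 features, 27.1% were higher and 24.2% lower untreated, and 27.1% and 23.2% under interferon. Nid1, which encodes nidogen, a link between laminin and type IV collagen, was 10.58, 10.57 and 10.43 in untreated wild type and 8.07, 8.61 and 8.41 in untreated knockout. It was lower by -2.17 ± 0.15 and -2.13 ± 0.15 (adjusted p = 1.13e-07 and 1.27e-07). Its paralogue Nid2 was higher by 2.34 ± 0.25 and 2.33 ± 0.25 (adjusted p = 5.88e-06 and 6.13e-06), at 5.73, 5.94 and 4.98 against 8.12, 7.78 and 7.76 untreated. Nid1 and Nid2 thus differed in opposite directions on non-overlapping arrays. Lamb3, a laminin chain of epithelial basement membranes, was higher by 2.87 ± 0.19 and 2.70 ± 0.19 (adjusted p = 7.76e-08 and 1.18e-07). Lamb3 was detected on 8 arrays and passed the filter through the knockout groups only, which favours a higher call. The same holds for Lama5, another laminin chain counted as higher, which was detected on 6 arrays.

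**Figure D5:**
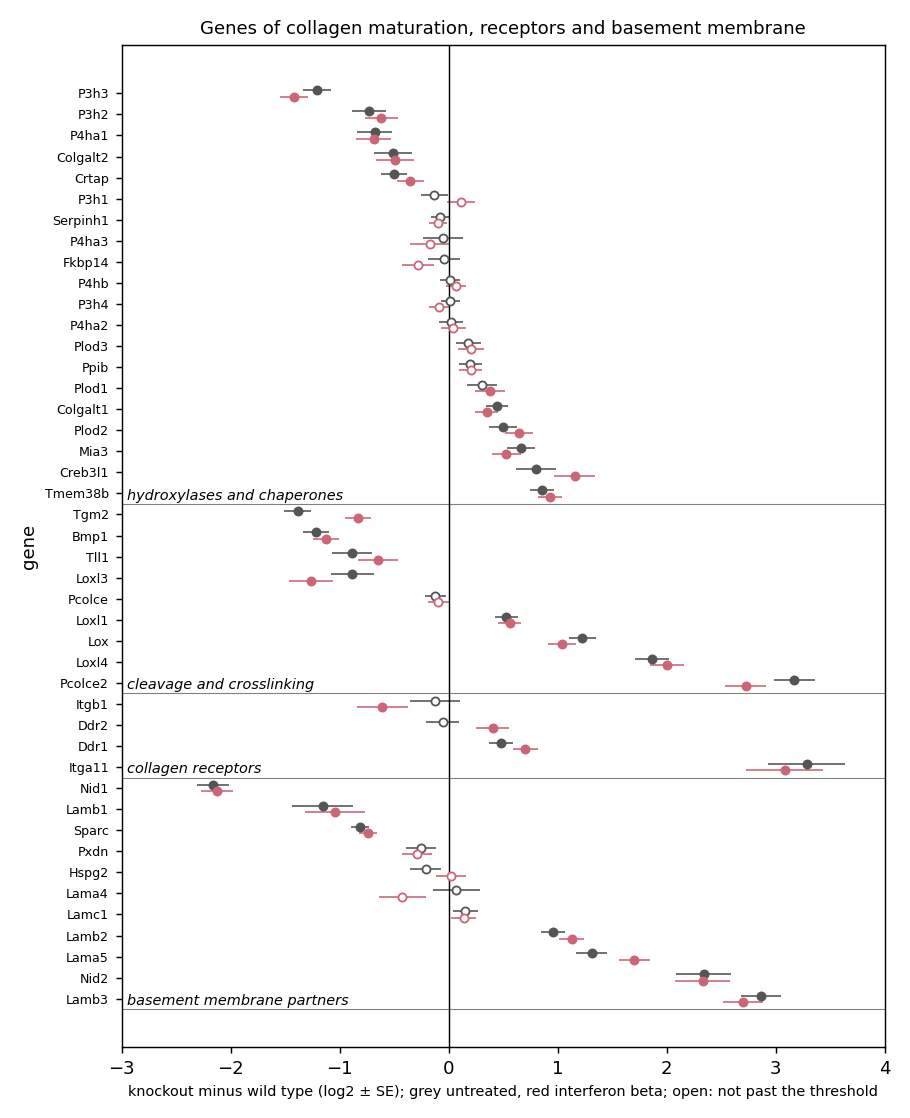
Knockout minus wild type for the tested genes of the 4 lists (x axis, log2 difference; bars are 1 standard error; grey untreated, red interferon beta; open points did not pass the adjusted threshold). Each list holds filled points on both sides of 0 except the untreated receptors, and the widest spread, from Nid1 to Lamb3, is among the basement membrane partners.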

How the data were processed

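Per the labels, 150 ng of total RNA per sample were amplified to biotin-labelled cRNA for single-colour Illumina bead arrays. The authors deposited a linear intensity per probe and array, and per the file headers a detection p-value for each. They also deposited log2 values, which matched the quantile-normalized log2 of those intensities within 0.00064.

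The intensities were background-corrected with normexp (neqc in limma 3.58.1, R 4.3.3; negative controls inferred through the detection p-values; offset 16), then quantile-normalized and put on the log2 scale. Of 45281 probes, 17837 were kept, those with a detection p under 0.05 on each of the 3 arrays of some group. The kept probe with the highest mean stood for a symbol, and probes with no symbol for themselves, which gave 12128 features, 9723 of them named. Of all probes, 34885 carried 1 symbol, 18 several and 10378 none in the platform annotation. Gene IDs were looked up in RefSeq for 34807 probes, which changed 0 symbols. A mean per group was fitted over the 12 arrays with limma. Variances were moderated (eBayes), and the 5 contrasts had two-sided tests. Adjusted p-values are limma's, by Benjamini-Hochberg over the 12128 features, and a gene was called at an adjusted p under 0.05. Each ± beside a difference is a standard error, and a level is a log2 intensity. Where a gene was detected on no array of a group, its fold is a bound against the lowest detected signal of those arrays. Marker sums are of linear background-corrected intensities. The fit was tested on simulated data. The number of arrays limits the precision.

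Alternatives covered the background correction, the normalization, the filter, the probes of a gene, the moderation, array weights and left-out arrays. The collagen genes, the 4 lists of partner genes and the marker lists were chosen with earlier results of these data known. The genes named were every tested collagen, Sirt2, and in each genotype comparison the 3 members of every partner list that passed the threshold with the greatest change, and the other named markers and controls were chosen after their values were seen. Promoters came from a RefSeq table on GRCm38.p6, and the figures were drawn with matplotlib 3.10.9 in Python 3.11.15.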

Additional observations from a re-analysis of the deposited data

How the results depend on the processing

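Under 26 alternatives (25 for Col5a3), 10 of the 13 collagen genes called between untreated genotypes kept their call and direction in all of them, as did 12 of 13 under interferon and 1 of 3 in the wild-type interferon response. The exceptions were Col5a1, Col5a3 and Col8a1 untreated, Col8a1 under interferon, and Col5a2 and Col6a1 in the wild-type response. No called gene changed direction. Among the same 19 genes, the count called higher in the untreated knockout was 1 in place of 2 without background correction, with the authors' values and without a filter. With detection p under 0.01 it was also 1, but only 15 collagen genes were tested there and Col5a3 was not among them. It was 3 with offset 50, with median scaling and with the replicate block, and 1 to 2 with an array left out. The count lower after interferon in wild type was 5 in place of 3 without background correction, with the authors' values, with offset 50 and with trended robust moderation, and 1 to 3 with an array left out. The count lower after interferon in the knockout was 1 in place of 0 without background correction, with the authors' values, with median scaling and with array weights, and 0 to 2 with an array left out. The cause was not tested. Of 18 same-numbered pairs of arrays, 4 had deviations from their group means that correlated above 0.1 (range -0.118 to 0.176). In every other group, 0 of 12 arrays correlated best with their own number. Within wild type, same-numbered pairs gave 0.047, 0.176 and 0.161, and pairs of unlike number -0.186 to 0.053. Within the knockout, same-numbered pairs gave 0.04, 0.044 and 0.041, and pairs of unlike number -0.075 to 0.042. These values do not settle whether treated and untreated samples of a number were paired. With the replicate block the counts were 11 lower and 3 higher untreated, 10 and 3 under interferon, 2 and 0 in wild type and 0 and 0 in the knockout. Over all 12128 features that fit called 2922 lower and 3275 higher untreated, 2816 and 3310 under interferon, 835 and 739 in wild type and 238 and 493 in the knockout. In the same fit Col1a1 passed untreated (adjusted p = 0.0447) and Col6a1 was lost in wild type (adjusted p = 0.0746). Median scaling moved the median of all features by 0.087 or less, but turned the interferon balance of all features from 760 higher and 917 lower to 695 and 1245 in wild type, and from 522 and 280 to 466 and 886 in the knockout. Without background correction the folds of dim genes shrank, for example Col3a1 to -1.45 untreated and -1.72 under interferon, and Col4a4 to -0.49 and -0.37. Signal over background limits Col5a3, Col11a2, Col9a1, Col26a1 and Col4a4.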
